A study of Mus musculus with 8 samples.

Results

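This comparison sets Pkd1 null against Pkd1 heterozygous mouse kidney cells when both are under THZ1. It uses 4 of the 8 libraries of the series, and 10620 of the 18631 listed genes: those with a mean of 1 FPKM or more over these 4 libraries. FPKM are fragment counts corrected for transcript length and for sequencing depth. The heterozygous group is the line pkd1(PH), labelled Pkd1+/-, and the null group is the line null(PN), labelled Pkd1-/-. Both lines were given 50 nM THZ1 for 6 h, with 2 libraries per line, and 2 more libraries per line, labelled DMSO, are used here for reference. Both grew in DMEM-F12 with 3% serum that also held IFNγ, insulin, transferrin, selenium and T3. The labels name no allele beyond Pkd1 and do not say how each line was derived. Each genotype is 1 line, so what the lines differ in besides Pkd1 cannot be told apart from the loss of Pkd1. Whether the replicates were separate cultures is not stated, so p-values measure the spread between these libraries, which may be technical.

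Pkd1 encodes polycystin-1, a large membrane protein that works with the channel polycystin-2 at the primary cilium and elsewhere. Its loss in tubule cells leads to cysts in autosomal dominant polycystic kidney disease. THZ1 binds covalently to CDK7, which phosphorylates the tail of RNA polymerase II and the cell cycle CDKs, and it also acts on CDK12 and CDK13. Short-lived RNAs are known to be the first to fall when transcription is inhibited. Both lines were given the same drug, so a difference under THZ1 holds the difference already present without it and any difference in response.

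The estimated depth was 17300000 to 18300000 fragments per library, and Pearson's r across genes within a pair of replicates was at least 0.9974. The labelled cell type is epithelial. Of the 10 general epithelial markers, 7 had a mean of 1 FPKM or more, among them Krt8 (324 and 333 FPKM in the heterozygous and 185 and 178 FPKM in the null THZ1 libraries) and the kidney cadherin Cdh16 (185, 183, 314 and 299 FPKM in the same order). The defining markers Cdh1 and Epcam were near 0, at 0.05 to 0.42 FPKM over all 8 libraries. The summed level of 15 fibroblast and mesenchyme markers was 63.0 to 65.2 FPKM in the heterozygous and 374 to 399 FPKM in the null THZ1 libraries. Of the 15, 6 passed the level filter and all 6 were called higher in null cells, against 25.3% of all tested genes. They were Acta2, Tagln, Col1a1, S100a4, Postn and Fbln5. S100a4 was at 23.5 and 22.9 against 76.3 and 66.8 FPKM, and Postn at 11.5 and 11.2 against 18.2 and 15.3 FPKM. Fbln5 was at 0.04 in both heterozygous libraries against 4.54 and 4.24 FPKM. It passed the filter only through the null libraries, so its direction was set by the filter. The other 9, among them the defining genes Pdgfra, Col3a1 and Dcn, were at 0 to 0.50 FPKM in these 4 libraries. The 10 endothelial markers summed to 0.78 to 1.05 FPKM and the 10 immune markers to 8.89 to 12.7 FPKM in these 4 libraries. In bulk samples, fewer cells of a type and less RNA per cell cannot be told apart. The part of such cells in the results was not tested.

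Pkd1 (gene ID 18763, chromosome 17, 24548689 to 24596514 in GRCm38) was examined first. Its level was 3.71 and 4.20 FPKM in the heterozygous and 1.22 and 1.21 FPKM in the null libraries under THZ1. The groups did not overlap, which held for 92.0% of the tested genes, and the log2 difference was -1.16 ± 0.10 (SE, limma adjusted p = 1.65e-07). Under DMSO that difference was -1.25, and the test of the change gave an adjusted p of 0.62. The null line thus kept a Pkd1 signal. Which exons its allele lacks is not given in the sources used here, and reads from the rest of the gene would still count. Pkd2, the gene for polycystin-2, was at 32.6 and 32.5 FPKM in heterozygous and 35.4 and 34.5 FPKM in null cells under THZ1. Its log2 difference of 0.10 ± 0.05 did not pass the test (adjusted p = 0.083), while under DMSO it was 0.34. After the median-of-ratios scaling described below, it was 0.40 under THZ1 and 0.41 under DMSO.

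Under THZ1 most expressed genes differed between the lines, and the larger share was lower in null cells. All differences are null minus heterozygous in mean log2(FPKM + 1), which understates changes of low genes, and a gene was called at a limma adjusted p below 0.05. Genes with a mean under 1 FPKM in 1 line passed the level filter only through the other line, so their direction was set by the filter. Examples named below are Praf2, Rad51c, Slc38a1 and Chac1. Of the 10620 genes, 8840 were called (83.2%), 2683 higher (25.3%) and 6157 lower (58.0%). Differences of at least 2-fold were called for 419 genes higher (3.95%) and 1519 lower (14.3%). Under DMSO 7441 genes were called (70.1%), 3069 higher (28.9%) and 4372 lower (41.2%), with 339 (3.19%) and 361 (3.40%) at least 2-fold. The median absolute difference was 0.49 under THZ1 and 0.29 under DMSO, and the median SE under THZ1 was 0.065.

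The share of lower genes depends on how the libraries are put on 1 scale. As deposited, the median gene was lower by 0.28 in null cells under THZ1 (median difference -0.28), against -0.07 under DMSO. Median-of-ratios scaling divides each library by its median ratio to the gene means. It brings that median to 0.00, a shift of 0.28, and gives 4359 genes higher and 4337 lower. Upper-quartile scaling gave 4228 and 4460, and scaling to library totals 2660 and 6122. Since this scaling moves the differences up together, that none of the 2683 higher genes lost its call was set by its direction. Of the 6157 lower genes, 4335 kept their call under it and 221 were called higher. At least 2-fold, 754 genes were then higher and 817 lower. FPKM are shares of a library and hold no measure of total RNA per cell, so a fall of most transcripts together could not be seen as such. For this reason the values below are read against the median of -0.28, and for most gene groups the count after median-of-ratios scaling stands beside that of the deposited values. Counts of a group are to be read against the shares of all genes. These were 25.3% higher and 58.0% lower as deposited, and 41.0% and 40.8% after median-of-ratios scaling. For the change from DMSO to THZ1 they were 15.3% up and 44.8% down, and 32.9% and 28.8% after that scaling.

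The line differences under DMSO and THZ1 come from separate libraries. Across the 10620 genes they had a Pearson correlation of 0.80 and a Spearman correlation of 0.72, given as a description, since genes are not independent replicates. In both conditions 1957 genes were called higher and 3842 lower. Another 1754 genes were called lower under THZ1 and not called under DMSO, and 605 were called higher under THZ1 and not called under DMSO. Of the 419 genes at least 2-fold higher under THZ1, 401 were called higher under DMSO too, with medians of 1.32 under THZ1 and 1.15 under DMSO. Of the 1519 genes at least 2-fold lower, 1261 were called lower under DMSO, but their median was -1.29 under THZ1 and -0.58 under DMSO. The test of the change itself called the difference larger under THZ1 for 1284 of those 1519 genes (84.5%) and for 203 of the 419 (48.4%). Of all genes, 44.8% were called changed downwards and 15.3% upwards as deposited, and 28.8% and 32.9% after median-of-ratios scaling. Both sets were chosen by their THZ1 difference, which favours a larger value there than under DMSO. As deposited, most of the large higher genes were called higher without the drug too. Most of the large lower genes were called further down under it, in a setting where downward changes were the more common.

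**Figure D1:**
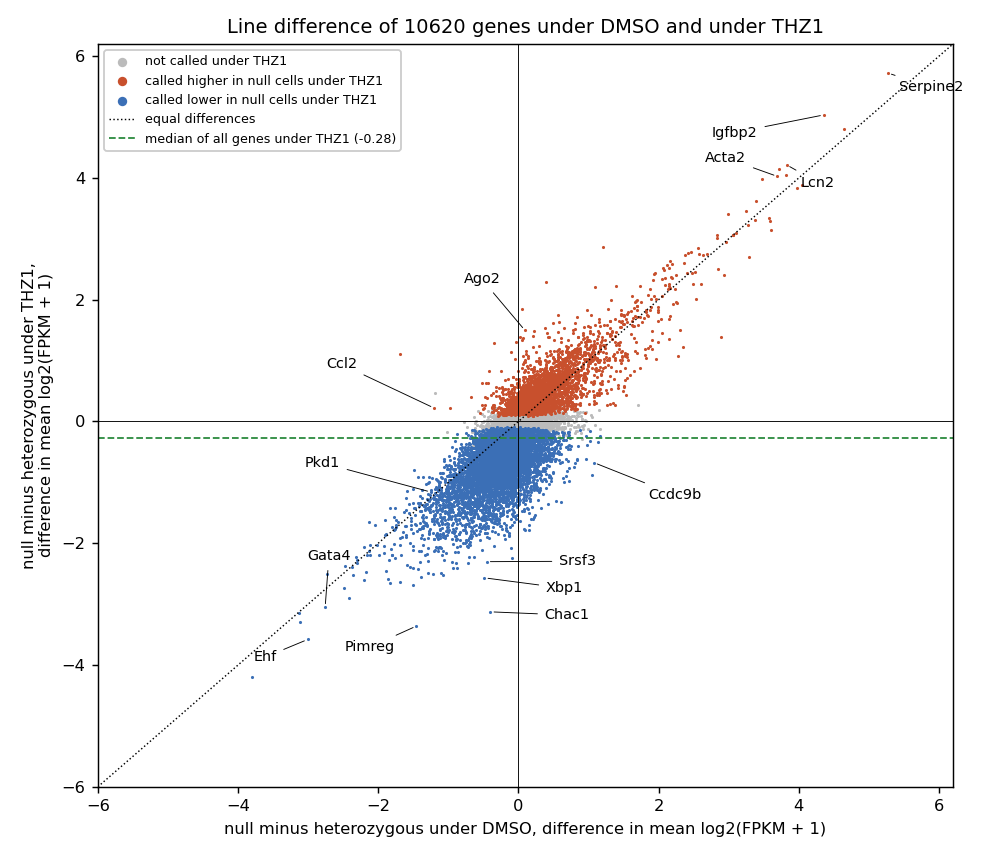
Each point is 1 of 10620 genes, with the null minus heterozygous difference in mean log2(FPKM + 1) under DMSO on the x axis and under THZ1 on the y axis. Points follow the dotted line of equal differences at the upper right (Igfbp2, 4.36 under DMSO and 5.04 under THZ1), while many genes lie below it at the lower centre (Chac1, -0.40 and -3.13), and the dashed line marks the median of -0.28.

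The 15 largest differences in each direction are given for genes with a mean log2(FPKM + 1) of 3 or more over the 4 THZ1 libraries, and less abundant genes with large differences, such as Serpine2 (5.72), Chac1 (-3.13) and Gata4 (-3.05), are described further on. Igfbp2, a secreted binding protein for insulin-like growth factors (chromosome 1, 72824480 to 72852474 in GRCm38), was at 2.14 and 2.09 FPKM in heterozygous and 104 and 98.2 FPKM in null cells under THZ1. Its log2 difference was 5.04 ± 0.10 (SE, limma adjusted p = 3.23e-13). Lcn2, the iron-carrier-binding lipocalin used as a marker of tubule injury (chromosome 2, 32384637 to 32387739), was at 40.9 and 36.8 FPKM against 771 and 706 FPKM (4.21 ± 0.06). In both genes the null libraries lay far above the heterozygous ones with no overlap, and both were called larger under THZ1 than under DMSO.

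Acta2, smooth muscle actin (chromosome 19, 34240336 to 34255585), was at 6.73 and 7.48 FPKM in heterozygous and 133 and 128 FPKM in null cells (4.03 ± 0.06). Myl9, a myosin regulatory light chain, was at 3.62 and 4.70 against 63.8 and 61.0 FPKM (3.63 ± 0.09). Tagln, an actin-binding protein of contractile cells, was at 17.2 and 19.4 against 142 and 134 FPKM (2.85 ± 0.06). These contractile genes were high in both null libraries and low in both heterozygous libraries. Complement C3 was at 13.9 and 13.4 against 101 and 97.5 FPKM (2.78), and the endocytic receptor Lrp1 at 4.82 and 4.69 against 36.9 and 37.7 FPKM (2.74).

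The other 8 of the 15 largest at this level were Praf2 (4.80), the prion-like Prnd (3.98), the kinase Dmpk (3.41), the cytochrome P450 Cyp4a12b (3.35), the potassium channel Kcnk1 (3.31), the transcriptional cofactor Vgll3 (3.06), the secreted lymphatic factor Ccbe1 (3.06) and the aldehyde dehydrogenase Aldh1a7 (2.74). The SEs of the 15 differences lay between 0.05 and 0.10. All 15 were called higher under DMSO, and also after median-of-ratios scaling, which moves the differences up. For 9 of the 15 the test called the difference larger under THZ1. Cyp4a12b and Aldh1a7 have close relatives in the genome, and how the authors' counting split reads between such copies is not given in the sources used here.

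The 15 largest lower genes at this level held an epithelial transcription factor, enzymes and 8 genes of the cell division cycle. Ehf, an epithelial ETS transcription factor (chromosome 2, 103263431 to 103303275), was at 32.2 and 31.5 FPKM in heterozygous and 1.54 and 1.97 FPKM in null cells under THZ1. Its log2 difference was -3.58 ± 0.07 (SE, limma adjusted p = 6.59e-13). Pimreg, a mitotic protein (chromosome 11, 72042428 to 72047372), was at 70.8 and 72.0 against 6.32 and 5.79 FPKM (-3.36 ± 0.05), while under DMSO it was at 76.5 and 80.6 against 27.1 and 28.9 FPKM. Ehf was thus already low in null cells without the drug, and Pimreg was lower there and lower still under THZ1.

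The kinase Nek2, which splits centrosomes at mitosis, was at 30.9 and 28.4 against 3.52 and 4.05 FPKM (-2.68 ± 0.07). Rfc4, a subunit of the clamp loader of DNA replication, was at 52.7 and 55.5 against 7.81 and 7.97 FPKM (-2.63 ± 0.06). Cdc45, part of the replicative helicase, was at 48.6 and 50.9 against 8.23 and 8.83 FPKM (-2.41 ± 0.06). In each of them the null DMSO libraries lay between the null THZ1 and the heterozygous libraries. The same held for the spindle protein Knstrn (-2.51), the centriole protein Tedc1 (-2.48), the mitotic phosphatase Cdc25b (-2.41) and the primase Prim1 (-2.32).

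The remaining genes included Xbp1 (-2.57), the glycoprotein ubiquitin ligase subunit Fbxo2 (-3.15), the methyltransferase Inmt (-2.74), the glutathione-cleaving enzyme Ggt1 (-2.50) and the epithelial protease inhibitor Spint1 (-2.38). All 15 were called lower under DMSO and after median-of-ratios scaling, and for 11 of the 15 the difference was called larger under THZ1. Fbxo2, Inmt, Ggt1 and Spint1 were not among the 11. Their values under DMSO were -3.14, -2.48, -2.73 and -2.47.

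**Figure D2:**
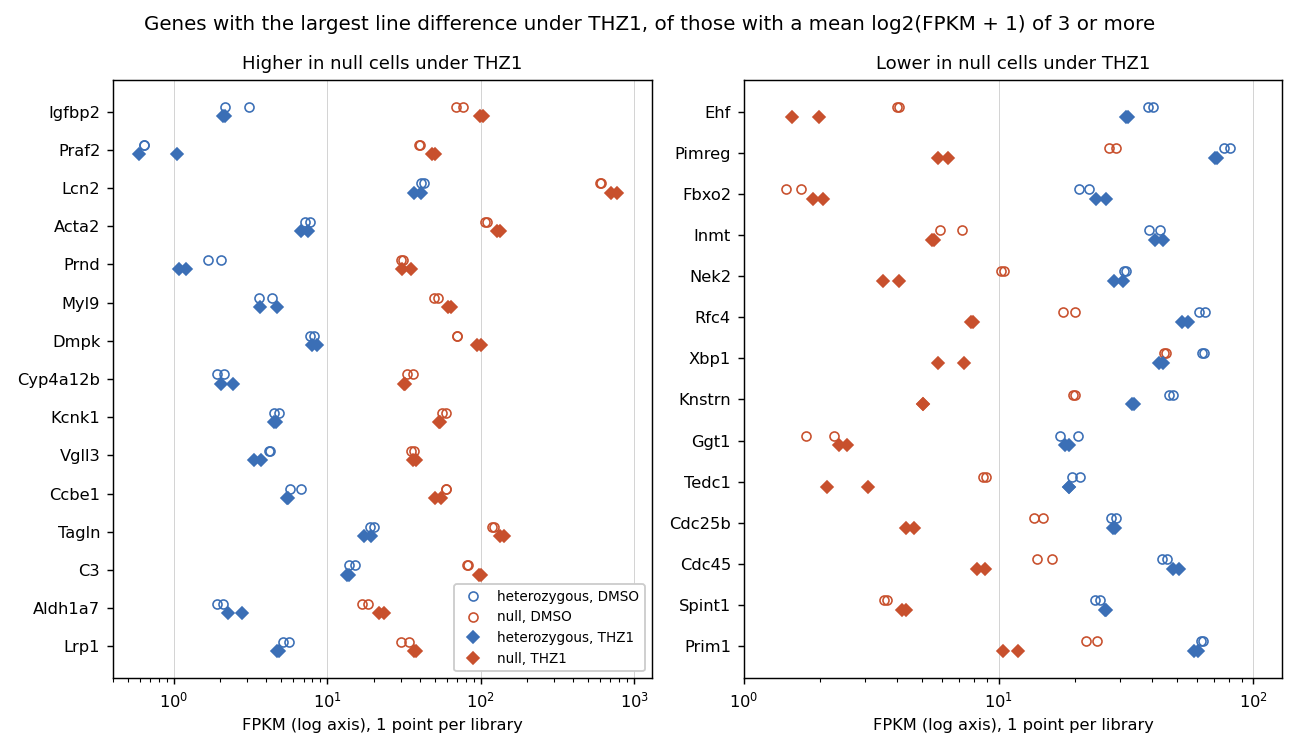
FPKM on a log axis for the 15 genes with the largest higher levels (left) and 14 of the 15 with the largest lower levels (right) in null cells under THZ1, 1 point per library, open circles for DMSO and filled diamonds for THZ1. At left the circles and diamonds of a line lie close together, as for Lcn2; at right the null diamonds of the cell division genes lie left of the null circles, as for Pimreg at 6.32 and 5.79 against 27.1 and 28.9 FPKM.

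The promoters of the largest genes were read for short motifs, on both strands, in the 250 bases before and 50 after each RefSeq start (GRCm38.p6). The sequences show the motif whose share was highest among the higher genes relative to all tested genes, the CArG box, which SRF binds in actin and myosin genes. They also show CCAAT, the box bound by NF-Y that is common in cell cycle promoters. Of the 419 genes at least 2-fold higher, 298 had a promoter in the table and 14 of these held a CArG box (4.70%). The share was 1.54% of the 8609 tested genes with a promoter, 1.12% of the 1247 genes at least 2-fold lower and 1.81% of all 27025 promoters. Below are the 4 genes of largest difference with the box before the start and a mean log2(FPKM + 1) of 3 or more, each as 60 bases read towards the gene, with the box in capitals.
Myl9: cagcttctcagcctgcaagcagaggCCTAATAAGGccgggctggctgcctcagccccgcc
Ppbp: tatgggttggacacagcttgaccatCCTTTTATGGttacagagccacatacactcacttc
Gsto1: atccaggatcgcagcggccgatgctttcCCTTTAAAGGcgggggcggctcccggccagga
Zfp36: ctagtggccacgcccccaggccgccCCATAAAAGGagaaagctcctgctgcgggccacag
These lie at chr2:156775278-156775337 (plus strand), chr5:90768406-90768465 (plus), chr19:47854913-47854972 (plus) and chr7:28379252-28379311 (minus). The boxes begin at -161, -87, -32 and -58 from the start. The genes encode the myosin light chain above, the platelet chemokine Ppbp, the glutathione transferase Gsto1 and the RNA-decay protein Zfp36. Their log2 differences under THZ1 were 3.63, 2.20, 1.79 and 1.64. Ppbp was at 20.2 and 19.1 FPKM in heterozygous and 94.0 and 93.4 FPKM in null cells, and Zfp36 at 6.69 and 6.77 against 24.5 and 21.8 FPKM. No CArG box was found in the windows of Acta2 and Lcn2, which says only that these letters are not in the windows read. Tagln, Ehf and Pimreg are named without a promoter.

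CCAAT was found in 97 of the 298 higher genes (32.6%), 623 of the 1247 lower genes (50.0%), 43.8% of the tested genes and 41.1% of all promoters. Among the 15 largest lower genes the box was also found for the enzyme gene Ggt1 (-2.50), not of the division cycle, and for Tedc1 (-2.48), neither of them shown. The 4 below are genes of the division cycle among the 15, picked as such, with CCAAT, or its reverse complement ATTGG, in capitals.
Nek2: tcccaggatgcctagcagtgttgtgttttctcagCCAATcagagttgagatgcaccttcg
Cdc25b: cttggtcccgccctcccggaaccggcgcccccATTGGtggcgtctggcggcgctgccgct
Cdc45: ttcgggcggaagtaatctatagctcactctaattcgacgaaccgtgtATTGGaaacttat
Prim1: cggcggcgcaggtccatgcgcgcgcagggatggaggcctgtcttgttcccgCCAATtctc
They lie at chr1:191821413-191821472 (plus), chr2:131186888-131186947 (plus), chr16:18811973-18812032 (minus) and chr10:128015155-128015214 (plus), each ending at the base before the start. TATAAA was found in 14.4% of the higher genes, 7.22% of the lower genes and 8.01% of the tested genes. The remaining motifs differed less: TGACTCA 6.38%, 4.01% and 4.24%, CACGTG 13.8%, 11.1% and 12.2%, TGACGTCA 3.02%, 4.57% and 3.75%, and GGGCGG 71.1%, 67.1% and 71.9%, in the same order. Letters of 1 motif can overlap those of another. These shares are descriptions, since a match is not a bound site.

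Genes of cell division were lower in null cells throughout. Of 40 DNA replication genes, 40 were called lower under THZ1 against 58.0% of all genes, with a median of -1.17 against -0.28 for all genes. After median-of-ratios scaling all 40 were still called lower, with a median of -0.88. Of 40 genes of mitosis and the spindle, 40 were called lower (median -1.18), and 37 after median-of-ratios scaling. Under DMSO 39 of the 40 in each list were called lower, with medians of -0.96 and -0.85. The test of the change called 20 replication genes further down and 4 further up under THZ1, and 25 and 1 of the mitosis genes, against 44.8% down and 15.3% up of all genes. After median-of-ratios scaling these counts were 15 and 9, and 18 and 5, with median changes of -0.05 and -0.09, against 28.8% down and 32.9% up of all genes.

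Aurkb, the kinase of the chromosome passenger complex, was at 55.1 and 56.6 FPKM in heterozygous and 11.4 and 13.1 FPKM in null cells (-2.11 ± 0.06). Ccna2, cyclin A2, was at 115 and 113 against 36.2 and 36.9 FPKM (-1.62 ± 0.04). The groups were far apart in both genes. Of 38 DNA repair and checkpoint genes, 36 were called lower (median -1.11; 35 lower and 1 higher after median-of-ratios scaling). Rad51c, a recombination protein, was at 8.39 and 9.12 against 0.96 and 0.67 FPKM (-2.43 ± 0.09), and Fanca, of the Fanconi pathway, at 16.3 and 15.1 against 2.86 and 3.04 FPKM (-2.08). In both genes the null libraries lay far below the heterozygous ones.

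Genes that control entry into the cycle were mixed. Of 26 G1 cyclins, CDKs and inhibitors, 3 were called higher and 20 lower (median -0.73; 6 higher and 18 lower after median-of-ratios scaling). The 3 higher genes were Ccnd1 and Ccnd2, which encode D cyclins, and Cdkn1a, which encodes the CDK inhibitor p21. Ccnd1 was at 131 and 135 FPKM in heterozygous and 341 and 339 FPKM in null cells (1.35 ± 0.04), and Cdkn1a at 307 and 310 against 522 and 503 FPKM (0.73 ± 0.04). The repressors E2f7 (-1.67) and E2f8 (-1.79) and the kinase gene Cdk2 (-1.36) were lower. Histone genes are hard to read here, since 10 of 55 passed the level filter, with 2 called higher and 6 lower (2 and 5 after median-of-ratios scaling). RNA was selected with oligo dT, which replication-dependent histone RNAs lack a tail for, and their copies are nearly identical.

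The matrix and the contractile cytoskeleton were on the higher side. Of 26 genes of collagens, laminins and matrix proteins, 22 were called higher and 2 lower, against 25.3% and 58.0% of all genes (median 0.85; 23 and 1 after median-of-ratios scaling). Fn1, fibronectin, was at 355 and 361 FPKM in heterozygous and 1156 and 1153 FPKM in null cells (1.69 ± 0.05). Thbs1, thrombospondin 1, was at 249 and 257 against 836 and 850 FPKM (1.73 ± 0.04), and Col1a1 at 3.10 and 3.55 against 23.9 and 23.8 FPKM (2.53 ± 0.07). In these 3 genes both null libraries lay above both heterozygous libraries by several fold. Lamb3, a laminin chain, was lower as deposited (-0.35), but stood at -0.07 and was not called after median-of-ratios scaling. Under DMSO 19 of the 26 were called higher (median 0.59), and the change was called up for 16 and down for 1 as deposited, and up for 21 after median-of-ratios scaling.

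Among 18 contractile and cytoskeletal genes known as SRF targets, 12 were called higher and 4 lower (median 0.59; 14 and 3 after median-of-ratios scaling). Mylk, the myosin light chain kinase, was in the other direction, at 15.8 and 15.5 FPKM in heterozygous and 6.35 and 6.47 FPKM in null cells (-1.17 ± 0.06). The SRF cofactor gene Mrtfb was lower too (-0.71). Of 22 genes of YAP and TAZ, the Hippo pathway cofactors, and their targets, 13 were called higher and 6 lower (median 0.46; 16 and 5 after median-of-ratios scaling). Dlc1, a GTPase-activating protein, was at 10.7 and 11.5 against 55.5 and 55.2 FPKM (2.22 ± 0.05), and the Hippo kinase gene Lats2 at 20.4 and 21.4 against 60.1 and 59.2 FPKM (1.47 ± 0.05). Under DMSO Lats2 was at 19.9 and 19.6 against 30.1 and 29.2 FPKM, so its gap widened from 0.56 to 1.47.

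TGF-beta genes were higher for 18 and lower for 6 of 28 (median 0.41; 20 and 5 after median-of-ratios scaling). Smad7, an inhibitory Smad that TGF-beta induces, was at 5.46 and 5.32 FPKM in heterozygous and 21.7 and 19.2 FPKM in null cells (1.75 ± 0.07). The ligand gene Bmp4 was lower, at 2.80 and 2.95 against 0.29 and 0.56 FPKM (-1.45 ± 0.11). It passed the level filter only through the heterozygous libraries, so its direction was set by the filter.

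Inflammatory genes were mostly higher, and the NF-kB subunits were split. Of 30 NF-kB subunits, inhibitors and target genes, 19 were called higher and 9 lower (median 0.51; 20 and 3 after median-of-ratios scaling), against 23 and 2 under DMSO. Tnfaip3, a feedback inhibitor, was at 6.36 and 6.16 FPKM in heterozygous and 37.2 and 38.3 FPKM in null cells (2.42 ± 0.05). Rela, the p65 subunit, was at 79.9 and 79.7 against 31.7 and 35.4 FPKM (-1.23 ± 0.06). Under DMSO Rela had been level, at 80.8 and 88.7 against 80.8 and 82.7 FPKM (-0.05), and the test of the change gave an adjusted p of 2.83e-07. Nfkb2, another subunit, went from 0.22 under DMSO to -0.52, while Nfkb1 stood at 0.67 and 0.64.

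Of 28 genes of the interferon response and MHC class I, 9 were called higher and 15 lower under THZ1, against 15 and 6 under DMSO. Their median was -0.27 under THZ1, at the all-gene median, and 0.03 after median-of-ratios scaling, with 12 higher and 12 lower. The medium of both lines held interferon gamma. The higher genes included MHC class I components: B2m was at 1127 and 1076 FPKM in heterozygous and 2057 and 1935 FPKM in null cells (0.86 ± 0.05), and the peptide-loading protein gene Tapbp was 0.82 higher. The lower genes included the immunoproteasome subunit Psmb9 (-1.004), the GTPase Igtp (-0.83) and Ifit3 (-0.68). Under DMSO Psmb9 was already lower (-0.68), while the values of Igtp and Ifit3 were -0.13 and -0.04.

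Of 23 immediate early genes, 16 were called higher and 5 lower (median 0.57; 18 and 4 after median-of-ratios scaling). These genes are switched on within minutes by growth signals and have short-lived RNAs. Junb was at 36.7 and 41.9 FPKM in heterozygous and 141 and 127 FPKM in null cells (1.75 ± 0.09), and under DMSO at 31.0 and 40.1 against 51.9 and 53.6 FPKM. Ier3 was at 41.3 and 45.5 against 165 and 153 FPKM (1.85 ± 0.05). Myc was at 30.6 and 31.9 against 43.0 and 41.0 FPKM (0.42 ± 0.05). Both null libraries were above both heterozygous libraries in each of them.

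Btg2, an antiproliferative p53 target, moved the other way. It was at 49.0 and 49.3 against 58.4 and 57.6 FPKM under DMSO, and at 37.7 and 37.4 against 11.8 and 12.7 FPKM under THZ1 (-1.54 ± 0.05). Jund went from 0.15 under DMSO to -0.74 under THZ1. ERK feedback genes, the phosphatases and inhibitors that MAP kinase signalling induces, were called higher for 9 and lower for 3 of 16 (median 0.35). The 3 lower ones were Dusp6, Spry2 and Dusp10. After median-of-ratios scaling 11 were higher and 0 lower. Dusp6 then stood at -0.04, Spry2 at -0.11 and Dusp10 at -0.16, and none of them was called. Dusp5 was at 9.25 and 10.2 against 20.8 and 20.6 FPKM (1.02 ± 0.09) and Spry4 at 0.69 and 0.64 against 3.53 and 3.61 FPKM (1.46). Spry4 passed the level filter only through the null libraries, so its direction was set by the filter.

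Genes of epithelial and kidney identity were mostly lower in null cells. Of 17 epithelial transcription factors and adhesion genes that passed the filter (of 32), 2 were called higher and 12 lower (median -0.55; 5 and 9 after median-of-ratios scaling). Besides Ehf and Spint1, the desmosomal protein gene Dsp was lower, at 7.25 and 6.80 FPKM in heterozygous and 1.93 and 2.06 FPKM in null cells (-1.42 ± 0.09). The 2 higher ones were Cdh16 (0.73) and the protease gene St14 (1.13). Of 15 kidney lineage transcription factors, 4 were called higher and 11 lower (median -0.64; 4 and 9 after median-of-ratios scaling). Pax2 was at 70.7 and 78.2 against 22.69 and 25.03 FPKM (-1.60 ± 0.07).

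Eya2, a transcriptional cofactor of homeodomain proteins, had been level under DMSO, at 13.2 and 12.1 against 13.8 and 13.1 FPKM. Under THZ1 it was at 9.56 and 8.09 FPKM in heterozygous and 2.06 and 1.72 FPKM in null cells (-1.76 ± 0.09). Of 7 keratin and vimentin genes, 3 were called higher and 4 lower under either scaling (median -0.85, and -0.54 after median-of-ratios scaling). Vim was higher, at 529 in both heterozygous libraries against 823 and 818 FPKM (0.63 ± 0.04). The keratin genes Krt7, at 310 and 320 against 371 and 384 FPKM (0.26 ± 0.05), and Krt20 (0.86) were higher too. Krt18 was lower, at 285 and 300 against 146 and 151 FPKM (-0.98 ± 0.05), as were Krt8, Krt19 and Krt80. Of the segment markers, the water channel Aqp1 was at 222 and 233 against 100 and 105 FPKM (-1.14), and Umod, of the thick ascending limb, at 1.80 and 1.62 FPKM in heterozygous cells and listed at 0 in the null libraries. The endocytic receptor Lrp2 was on the other side, at 0.50 and 0.46 against 4.81 and 5.11 FPKM (2.01). So was Kng2, the 1 tested member of the loop of Henle and distal tubule markers, at 0.07 and 0.20 against 2.60 and 2.12 FPKM (1.56). Lrp2 and Kng2 passed the level filter only through the null libraries, so their direction was set by the filter. Umod, of the same marker list as Kng2, did not pass it.

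**Figure D3:**
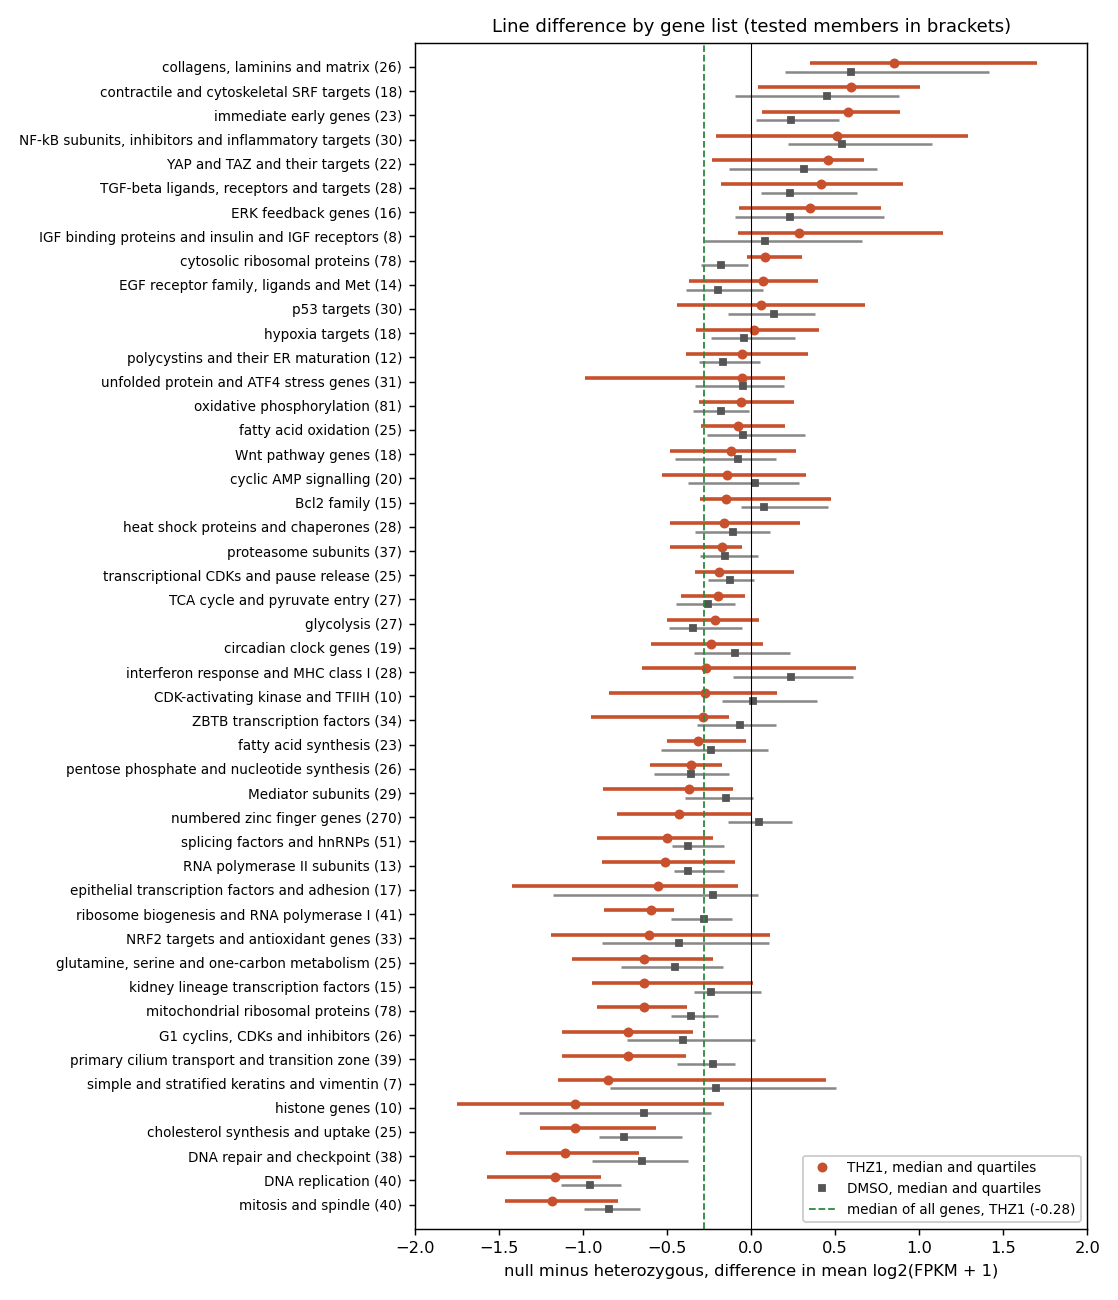
Gene lists ordered by the median null minus heterozygous difference in mean log2(FPKM + 1) under THZ1, with a bar from the lower to the upper quartile of the list's genes (red, THZ1; grey, DMSO). Collagens and matrix lie at the top (0.85) and replication and mitosis at the bottom (-1.17 and -1.18). Several lists have THZ1 and DMSO medians on different sides of 0, among them the numbered zinc finger genes, the cytosolic ribosomal proteins and the interferon response.

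Genes of the transcription machinery, the targets of THZ1 among them, were on both sides. Cdk7 was at 6.34 and 6.27 FPKM in heterozygous and 5.07 and 5.29 FPKM in null cells (-0.24 ± 0.08, adjusted p = 0.013). That call did not last: the difference was 0.02 after median-of-ratios scaling, and the adjusted p was 0.058 without heterozygous THZ1 replicate 1 and 0.060 without null THZ1 replicate 1. The other subunits of its complex were Mnat1, at 18.1 and 19.0 against 11.9 and 12.6 FPKM (-0.56 ± 0.06), and cyclin H (Ccnh), at 6.16 and 6.44 against 7.59 in both null libraries (0.24 ± 0.07; adjusted p = 0.057 without heterozygous THZ1 replicate 1). Of the 10 genes of this kinase and of TFIIH, 3 were called higher and 6 lower (median -0.27; 4 and 4 after median-of-ratios scaling). The change from DMSO to THZ1 was called down for 7 of the 10, against 44.8% of all genes. After median-of-ratios scaling it was called down for 4 and up for 1, against 28.8% and 32.9% of all genes. The largest of these changes was in Gtf2h3, a TFIIH core subunit, at -0.01 under DMSO and -1.03 ± 0.08 under THZ1.

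Of 13 RNA polymerase II subunits, 2 were called higher and 9 lower (median -0.51; 4 and 8 after median-of-ratios scaling). Polr2a, the largest subunit that carries the tail CDK7 phosphorylates, was at 110 and 110 FPKM in heterozygous and 122 and 125 FPKM in null cells (0.16 ± 0.05). Under DMSO it was lower in null cells, at 64.9 and 63.0 against 47.0 and 51.2 FPKM (-0.38). Its level was higher under THZ1 than under DMSO in both lines. Of 25 genes of the other transcriptional CDKs and of pause release, 8 were called higher and 13 lower (median -0.19), which became 12 and 6 after median-of-ratios scaling (median 0.11). Nelfe, a subunit of the pausing factor NELF, was at 33.4 and 36.0 against 11.1 and 10.8 FPKM (-1.58 ± 0.05), and the pausing and elongation factor gene Supt5 at 53.9 and 52.4 against 74.9 and 75.7 FPKM (0.49 ± 0.04). Of 29 Mediator subunits, 6 were called higher and 19 lower (median -0.37; 9 and 13 after median-of-ratios scaling), from Med13l (0.70) to Med9 (-1.63). As deposited 25.3% and 58.0% of all genes were called these ways.

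RNA processing and ribosome-building genes were lower. Of 51 splicing factors and hnRNPs, 5 were called higher and 43 lower (median -0.50; 11 and 32 after median-of-ratios scaling). The lowest was Srsf3, at 151 and 144 against 110 and 105 FPKM under DMSO and at 121 and 115 against 22.2 and 24.0 FPKM under THZ1. Its difference went from -0.45 to -2.30 ± 0.05, with an adjusted p of 1.09e-08 for the change. Srsf11 was on the other side (0.70). Of 41 genes of ribosome biogenesis and RNA polymerase I, 38 were called lower (median -0.60; 32 lower and 2 higher after median-of-ratios scaling). Of 78 mitochondrial ribosomal proteins, 2 were called higher and 69 lower (median -0.64; 10 and 54 after median-of-ratios scaling), for example Mrpl40, at 57.4 and 56.6 against 18.1 and 19.6 FPKM (-1.55 ± 0.05).

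Cytosolic ribosomal proteins were different. Of 78, 36 were called higher and 9 lower under THZ1 (median 0.08), against 12 and 47 under DMSO (median -0.18). After median-of-ratios scaling the THZ1 counts were 69 and 1 (median 0.39). The change from DMSO to THZ1 was called up for 71 and down for 1 as deposited, against 15.3% and 44.8% of all genes. After median-of-ratios scaling it was called up for 77 and down for 1, against 32.9% and 28.8% of all genes. The 1 that went down was Rpl7l1, a ribosome-building protein named like a subunit, at 40.9 and 41.9 FPKM in heterozygous and 21.4 and 23.1 FPKM in null cells (-0.87 ± 0.05). Rps14 was at 648 and 568 against 1255 and 1139 FPKM (0.98 ± 0.06). Ribosomal protein genes have many near-identical pseudogenes, so the split of their reads is uncertain.

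Genes of oxidative phosphorylation, assembly factors included, were called higher for 30 and lower for 32 of 81 under THZ1 (median -0.06), against 10 and 46 under DMSO (median -0.18). After median-of-ratios scaling the THZ1 counts were 51 and 15 (median 0.25), and the change was called up for 66 and down for 3, against 42 and 9 as deposited. Of all genes, the change was called up for 32.9% and down for 28.8% after that scaling, and for 15.3% and 44.8% as deposited. Ndufa2, of complex I, was at 71.1 and 72.8 FPKM in heterozygous and 114 and 115 FPKM in null cells (0.66 ± 0.05), and Uqcrfs1, of complex III, at 85.7 and 89.1 against 52.8 and 52.0 FPKM (-0.73 ± 0.05). The most abundant genes of the cells were on both sides. Eef1a1, an elongation factor, was at 3906 and 3871 against 5156 and 4881 FPKM (0.37), and Ftl1, the ferritin light chain, at 2926 and 3019 against 3772 and 3532 FPKM (0.30). Gapdh (-0.22) and Ppia (-0.27) were lower as deposited, and stood at 0.09 and 0.04 after median-of-ratios scaling.

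Of the metabolic pathways, cholesterol synthesis and uptake differed most. Of 25 genes, 24 were called lower and 1 higher (median -1.05; 21 and 1 after median-of-ratios scaling), and 22 were lower under DMSO. Insig1, which holds back the sterol sensor, was at 92.4 and 93.4 FPKM in heterozygous and 19.4 and 21.7 FPKM in null cells (-2.12 ± 0.05). Hmgcs1, an early enzyme of the pathway, was at 148 and 145 against 48.2 and 49.5 FPKM (-1.57 ± 0.04). The 1 higher gene was the reductase Tm7sf2 (0.46 ± 0.07). Fatty acid synthesis was called higher for 6 and lower for 17 of 23 genes (median -0.31), but 6 and 7 after median-of-ratios scaling.

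Glutamine, serine and one-carbon genes were called higher for 2 and lower for 20 of 25 (median -0.64; 4 and 16 after median-of-ratios scaling). The glutamine transporter gene Slc38a1 was at 6.65 and 6.53 FPKM in heterozygous and 0.52 and 0.63 FPKM in null cells (-2.27 ± 0.09). Pentose phosphate and nucleotide synthesis gave 2 higher and 20 lower of 26 (median -0.36; 7 and 10 after median-of-ratios scaling), led by the purine enzyme Pfas (-1.81) and the pyrimidine enzyme Umps (-1.78). Glycolysis gave 5 and 16 of 27 (median -0.22), the TCA cycle 5 and 17 of 27 (-0.20) and fatty acid oxidation 8 and 11 of 25 (-0.08). After median-of-ratios scaling these 3 turned to 12 and 9, 13 and 7, and 16 and 5, so no direction is given for them.

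Antioxidant and NRF2 target genes gave 9 higher and 21 lower of 33 (median -0.61; 14 and 17 after median-of-ratios scaling). As deposited these counts were near the shares of all genes, 25.3% and 58.0%. Srxn1, sulfiredoxin, was at 51.2 and 53.7 FPKM in heterozygous and 11.1 and 11.2 FPKM in null cells (-2.14 ± 0.05), and the glutathione peroxidase gene Gpx1 at 161 and 171 against 274 and 256 FPKM (0.67 ± 0.06). Genes of primary cilium transport and its transition zone gave 1 higher and 36 lower of 39 (median -0.73; 4 and 28 after median-of-ratios scaling), against 3 and 25 under DMSO (median -0.23). The change was called down for 25 as deposited, against 44.8% of all genes. After median-of-ratios scaling it was called down for 18 and up for 4, against 28.8% and 32.9% of all genes. Bbs1, of the BBSome cargo complex, was at 6.94 and 6.86 against 0.92 and 1.18 FPKM (-1.95 ± 0.08). The 1 higher gene was the ciliary trafficking adaptor Tulp3 (0.40).

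Stress and survival genes were mixed. Of 31 unfolded protein and ATF4 stress genes, 11 were called higher and 15 lower (median -0.06; 17 and 12 after median-of-ratios scaling). Chac1, a glutathione-degrading ATF4 target (chromosome 2, 119351242 to 119354326), was at 14.79 and 15.02 FPKM in heterozygous and 0.65 and 1.01 FPKM in null cells (-3.13 ± 0.09). Under DMSO it was at 24.3 and 26.3 against 19.3 and 18.6 FPKM. Xbp1, which drives transcription in response to unfolded protein (chromosome 11, 5520641 to 5525993), was at 44.3 and 42.7 against 5.78 and 7.30 FPKM (-2.57 ± 0.07), and under DMSO at 62.8 and 63.9 against 45.6 and 44.4 FPKM. Atf4 was at 219 and 214 against 69.9 and 70.8 FPKM (-1.61 ± 0.04). The ER chaperone and its partner, Calr (0.69) and Pdia3 (0.62), were on the higher side.

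Among 30 p53 targets 13 were called higher and 11 lower (median 0.06; 19 and 8 after median-of-ratios scaling), and among 15 Bcl2 family genes 5 and 7 (median -0.15; 8 and 2). The death receptor gene Fas was at 7.84 and 7.73 FPKM in heterozygous and 45.0 and 43.4 FPKM in null cells (2.36 ± 0.07). Pmaip1, the BH3 protein Noxa, was at 27.6 and 28.3 against 92.8 and 95.9 FPKM (1.72 ± 0.05). Under DMSO both were higher in null cells too (2.09 and 1.74). The antiapoptotic Mcl1 stood at -0.34 under THZ1 as deposited and at -0.03 after median-of-ratios scaling, where it was not called.

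The EGF receptor gene had a different order in the 2 conditions. Egfr was at 31.2 and 28.6 FPKM in heterozygous and 25.1 and 27.0 FPKM in null cells under DMSO, and at 30.3 and 30.6 against 43.6 and 46.0 FPKM under THZ1 (0.54 ± 0.06). Erbb2 was at 18.3 and 18.3 against 6.75 and 7.33 FPKM under THZ1 (-1.26 ± 0.06). The ligand gene Hbegf was at 28.4 and 27.7 against 92.3 and 92.4 FPKM (1.68 ± 0.05). Of 14 genes of that family, its ligands and Met, 7 were called higher and 5 lower (median 0.07; 9 and 4 after median-of-ratios scaling).

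Genes of the polycystin complex and its maturation gave 4 higher and 5 lower of 12 (median -0.05), and 8 and 2 after median-of-ratios scaling (median 0.26), against 2 and 6 under DMSO. Of 8 IGF binding protein and insulin or IGF receptor genes, 5 were called higher and 2 lower (median 0.28; 6 and 2 after median-of-ratios scaling). Besides Igfbp2, Igfbp7 was at 401 and 424 FPKM in heterozygous and 1014 and 942 FPKM in null cells (1.24). Hypoxia targets gave 7 higher and 7 lower of 18 (median 0.02; 11 and 2 after median-of-ratios scaling). Among them Vegfa, the vessel growth factor, was at 9.53 and 9.65 against 34.4 and 33.2 FPKM (1.72). Wnt pathway genes gave 8 higher and 9 lower of 18 (median -0.12; 9 and 5 with a median of 0.19 after median-of-ratios scaling), with the receptor gene Fzd2 at -1.66. Cyclic AMP signalling gave 8 and 10 of 20 (median -0.15), and 10 and 9 after that scaling (0.12). Heat shock proteins and chaperones gave 9 and 15 of 28 (-0.16), and 15 and 10 after it (0.15). Proteasome subunits gave 7 and 24 of 37 (-0.17), and 20 and 12 after it (0.14). The medians of these 4 groups changed sign with the scaling. The chaperone gene Hspa8 was at 1582 and 1599 FPKM in heterozygous and 819 and 868 FPKM in null cells (-0.91). Of 19 circadian clock genes 4 were called higher and 10 lower (median -0.24; 7 and 5 after median-of-ratios scaling). The shares of all genes to set beside the counts of these groups were 25.3% and 58.0%, and 41.0% and 40.8% after that scaling.

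The large group of numbered zinc finger genes, mostly DNA-binding repressors, had 49 called higher and 180 lower of 270 under THZ1 (median -0.43), against 84 and 55 under DMSO (median 0.05). After median-of-ratios scaling the THZ1 counts were 74 and 136 (median -0.22). The change was called down for 170 and up for 24 as deposited, against 44.8% and 15.3% of all genes. After median-of-ratios scaling it was called down for 131 and up for 39, against 28.8% and 32.9% of all genes. Zfp740 was at 31.2 and 31.7 FPKM in heterozygous and 13.8 and 14.8 FPKM in null cells (-1.08 ± 0.05), against -0.10 under DMSO. The most significant higher member, Zfp36, is an RNA-binding protein and not a member of the DNA-binding family. Of 34 ZBTB factors, 3 were called higher and 24 lower (median -0.29; 7 and 15 after median-of-ratios scaling), and the change was called down for 22 and up for 2 as deposited, against 44.8% and 15.3% of all genes, and for 15 and 6 after median-of-ratios scaling. Zbtb45 went from -0.34 under DMSO to -1.60 ± 0.08.

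In 682 genes the lines were called in opposite order under DMSO and THZ1: 561 were higher in null cells under DMSO and lower under THZ1 (5.28% of the tested genes), and 121 the other way round (1.14%). Median-of-ratios scaling gave 774 in all. Bid, a proapoptotic Bcl2 family protein, was at 21.7 and 21.2 FPKM in heterozygous and 37.9 and 34.1 FPKM in null cells under DMSO, and at 18.5 and 19.0 against 7.99 and 10.1 FPKM under THZ1. Ccdc9b was at 16.6 and 15.7 against 34.01 and 36.42 FPKM under DMSO and at 8.31 and 9.23 against 4.87 and 5.36 FPKM under THZ1. In both genes the order of the lines turned round, with no overlap in either condition. Mob3a, Kctd1, Zfp579 and Inka2 were the others with the largest turns among genes whose log2(FPKM + 1) averaged 3 or more over the 8 libraries, with differences of 0.70 to 0.81 under DMSO and -0.66 to -0.77 under THZ1.

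Turning the other way, Rbm14, a coactivator and paraspeckle protein, was at 30.1 and 32.5 FPKM in heterozygous and 20.8 and 22.3 FPKM in null cells under DMSO. Under THZ1 it was at 37.2 and 40.7 against 61.4 and 61.0 FPKM. The kinase gene Hipk2 went from -0.42 to 0.83, the G protein gene Gna13 from -0.39 to 0.43, Rbm33 from -0.32 to 0.57, Tmem161b from -0.32 to 0.42 and the ATP synthase subunit Atp5e from -0.35 to 0.27. In each of them the null libraries were on different sides of the heterozygous libraries in the 2 conditions.

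**Figure D4:**
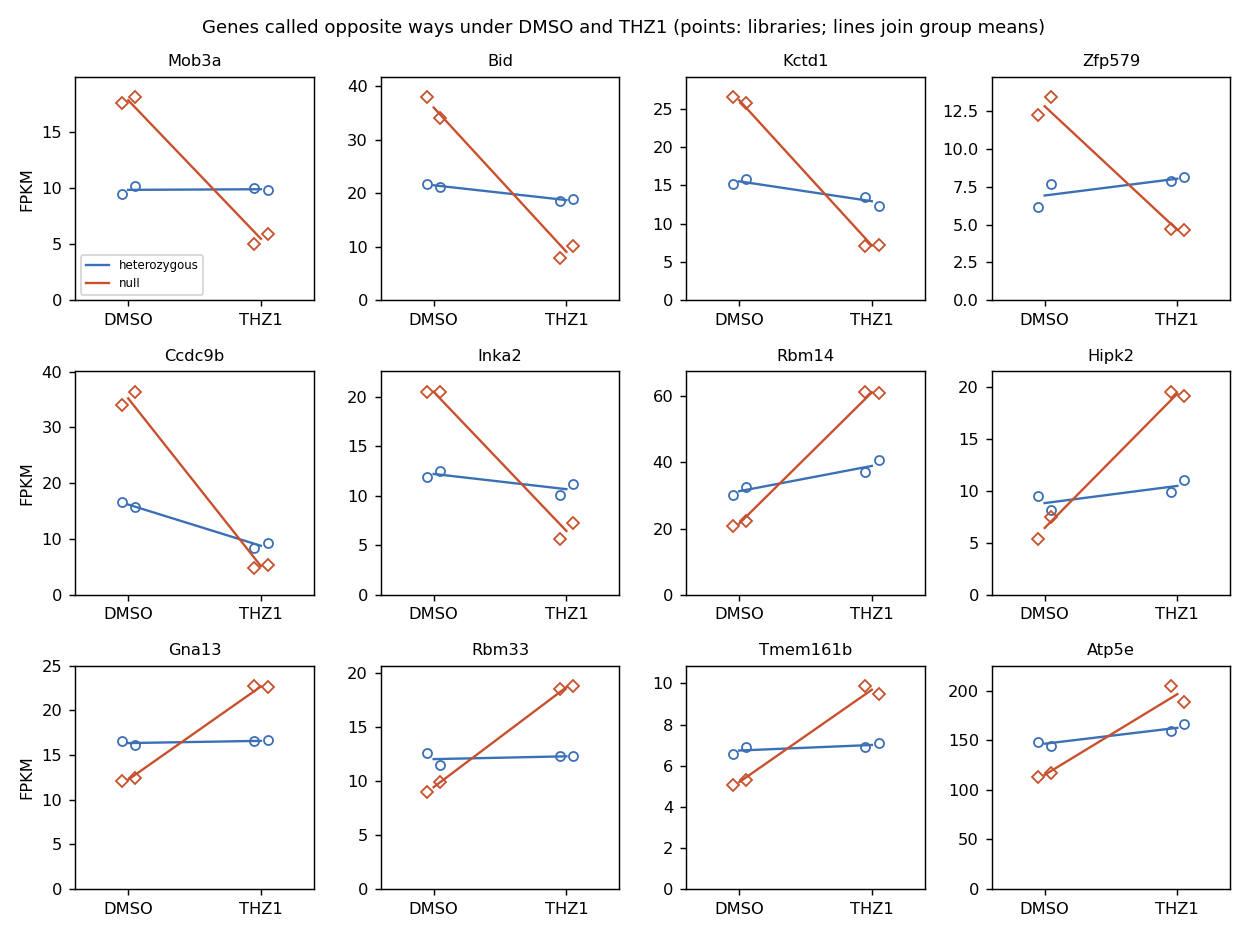
FPKM of the 12 named genes called in opposite order, with both replicates of each group as points (blue circles, heterozygous; red diamonds, null) and lines joining the group means from DMSO to THZ1, each y axis starting at 0. The red lines cross the blue ones in each panel, as for Mob3a, where the null libraries go from 17.6 and 18.1 to 5.07 and 5.93 FPKM.

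Among genes with a mean log2(FPKM + 1) of 3 or more over the 8 libraries, the largest downward changes of the line difference after Chac1 and Xbp1 were in Lrrc14, Arfgap1, the histone gene H2ac13, whose copies are nearly identical, and Pimreg. Changes of at least 2-fold were called down for 587 genes (5.53%) and up for 32 (0.301%). Lrrc14 was at 11.8 and 11.8 FPKM in heterozygous and 1.94 and 2.13 FPKM in null cells under THZ1 (-2.07 ± 0.06), against -0.10 under DMSO. Arfgap1, a GTPase activator of the Golgi, was at 18.2 and 19.4 against 4.07 and 5.50 FPKM (-1.78 ± 0.09), against 0.15 under DMSO. Upward, Ago2, the microRNA-guided Argonaute (chromosome 15, 73101625 to 73184947), was at 8.16 and 8.07 against 24.8 and 24.6 FPKM (1.496 ± 0.091), while under DMSO it was at 10.4 and 8.58 against 9.17 and 11.2 FPKM. Mical3, an actin-oxidising enzyme, went from -0.11 to 1.15 ± 0.06 and Dcdc2c from 0.21 to 1.402 (SE 0.12). The chemokine gene Ccl2 went from -1.20 to 0.22 ± 0.08, and the insulin receptor substrate gene Irs2 from -0.98 to 0.21 ± 0.07. The THZ1 value of Ccl2 was not called without null THZ1 replicate 1 (0.10, adjusted p = 0.27) or without heterozygous THZ1 replicate 1 (adjusted p = 0.093), and that of Irs2 not without heterozygous THZ1 replicate 1 (adjusted p = 0.068).

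A few genes were on in 1 line and at or near 0 in the other. With 5 FPKM or more in both THZ1 libraries of a line and at most 0.1 in both of the other, 6 genes were seen in the null line and 1 in the heterozygous line, predicted genes and clones left aside. Serpine2, a protease inhibitor, was at 53.7 and 54.0 FPKM in null cells and at 0.08 and 0 in heterozygous cells. Rtl8b and Bex1, both on the X chromosome, were listed at 0 in all 4 heterozygous libraries and were at 9.34 and 8.23, and 8.08 and 7.03 FPKM in null cells under THZ1. The matrix protein gene Fbln1 was at 6.04 and 6.23, Mmd at 5.79 and 5.73 and the G protein gene Gnai1 at 5.10 and 5.08 FPKM in null cells. The reverse held for the transcription factor gene Gata4, at 7.66 and 8.08 FPKM in heterozygous and 0.07 in both null libraries. Under DMSO each of them was on the same side, with Gata4 at 6.23 and 6.72 FPKM in heterozygous and 0.10 and 0.11 FPKM in null cells.

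The line difference also varied along the genome. Chromosome 18 had a median of 0.38 under THZ1 and 0.56 under DMSO, with 175 of its 272 tested genes called higher (64.3%) against 25.3% of all genes. Chromosome 11 had the lowest median, -0.64 under THZ1 and -0.34 under DMSO, with 108 of 902 genes higher (11.97%). Chromosomes 16 (-0.52), 19 (-0.49) and 1 (-0.41) were also low and chromosome 3 high (0.09). The median change from DMSO to THZ1 lay between -0.27 (chromosome 11) and -0.08 (chromosome 1). Copy number was not measured, and its part in these differences was not tested.

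The medians of short and long genes differed more under THZ1 than under DMSO. Gene span is the distance from start to end in GRCm38.p6. In the eighth of the genes with the shortest spans, up to 5.52 kb, the median difference under THZ1 was -0.36, in the next eighth, up to 10.4 kb, it was -0.48, and in the eighth with the longest spans, from 96.8 kb, it was -0.06. The shortest genes thus did not have the lowest median. Under DMSO the medians of these 3 groups were -0.12, -0.10 and 0.01. Among genes of middle level, divided into 4 groups by span, the medians ran from -0.59 in the shortest group to -0.05 in the longest. The median varied with level too: it was -0.45 and -0.49 in the 2 lowest eighths by mean level and 0.01 in the highest, while under DMSO the eighths lay between -0.10 and -0.04. Median-of-ratios scaling moves all of these medians up together, to 0.21 in the longest and 0.33 in the most abundant eighth.

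**Figure D5:**
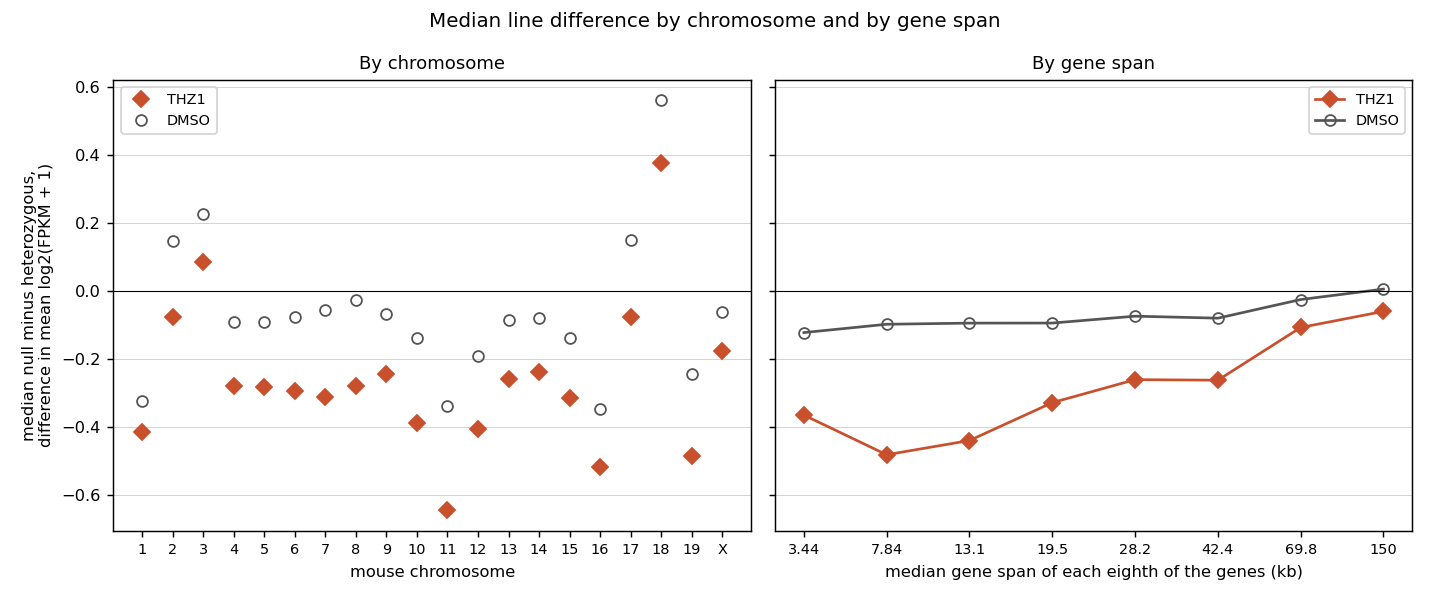
Median null minus heterozygous difference in mean log2(FPKM + 1) by chromosome (left) and by eighths of the genes ordered by span (right, axis labels give the median span of each eighth in kb), red diamonds for THZ1 and grey circles for DMSO. Chromosome 18 stands above the others in both conditions (0.38 and 0.56), and at right the THZ1 medians are -0.36 in the first eighth, -0.48 in the next and -0.06 in the last, while the DMSO medians stay between -0.12 and 0.01.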

How the data were processed

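RNA of both lines was sequenced after poly(A) selection, and the authors deposited 1 FPKM value per gene and library. Per the submitters' processing notes the tools included Bowtie2 and DESeq2 and the build was mm10. No source used here names the counting program or annotation. The file lists 18631 genes by Entrez ID, of which 18592 were matched to a RefSeq symbol, and 1319 are at 0 in all 8 libraries. The planned test depended on the unit, and since the values are FPKM, limma 3.58.1 (R 4.3.3) was fitted to log2(FPKM + 1) of the 8 libraries, with trend and 1 mean per group. The 10620 genes with a mean of at least 1 FPKM over the 4 THZ1 libraries were tested, with Benjamini-Hochberg adjustment over all of them. The fit and the depth estimate were tested on simulated data. Depth was estimated from the steps between low FPKM values.

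Named genes were those of largest difference or change at a mean log2(FPKM + 1) of at least 3, the list members of smallest adjusted p in each direction, 1-line genes, the most abundant genes and a fixed set (Pkd1, Pkd2, Cdk7, Ccnh, Mnat1, Myc, Polr2a). Predicted genes were passed over, and a few genes that the rule gives are not reported here. The members, gene lists and rules were chosen with earlier results of these data known. Replicate numbers did not pair the libraries. Scaling, pseudocount, filter, a replicate block, the 4 THZ1 libraries alone and leaving out each library were tried as alternatives.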

Additional observations from a re-analysis of the deposited data

Results flagged for a closer look

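The difference between the lines differed between THZ1 and DMSO for 46 of the genes examined for it, by limma's test of the change over all 10620 genes, which called 60.1% of them. The genes examined were the fixed set, the 15 largest each way, those called in opposite order and those of largest change, at the level limits of the report. Those of largest change were taken only from genes with a called change, so their call was set by the choice. For those called in opposite order the choice favoured a call. The 46 are therefore not a rate to set beside the 60.1%. Members named only for a gene list were not among the genes examined, and some of those members changed as much, such as Srsf3 (-1.85), Eya2 (-1.85), Btg2 (-1.78) and Junb (1.18). Values are the log2 difference under THZ1 minus that under DMSO, and the highest adjusted p among them was 0.0335, for H2ac13. The largest falls among the genes examined were in Chac1 (-2.73), Xbp1 (-2.08), Lrrc14 (-1.97), Arfgap1 (-1.93), H2ac13 (-1.93), Pimreg (-1.90), Ccdc9b (-1.75), Bid (-1.69) and Mob3a (-1.55). Next came Kctd1 (-1.48), Zfp579 (-1.48), Cdc25b (-1.48), Tedc1 (-1.38), Inka2 (-1.36), Knstrn (-1.30), Nek2 (-1.17) and Rfc4 (-0.94). The smallest falls were in Cdc45 (-0.91), Prim1 (-0.90), Ehf (-0.57), Mnat1 (-0.42), Cdk7 (-0.41), Ccnh (-0.28) and Pkd2 (-0.24). After median-of-ratios scaling the changes of Cdk7 (-0.21), Ccnh (-0.07), Pkd2 (-0.01) and H2ac13 (-1.69) were not called, while that of Mnat1 was (-0.19).

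The largest rises among them were in Ccl2 (1.42), Ago2 (1.403), Mical3 (1.25), Hipk2 (1.24), Dcdc2c (1.19), Irs2 (1.19), Rbm14 (1.16) and Rbm33 (0.89). They were followed by Gna13 (0.82), Tmem161b (0.74), Igfbp2 (0.68), Atp5e (0.62), Polr2a (0.54), Prnd (0.51), Dmpk (0.42) and Lcn2 (0.39). The smallest rises were in Lrp1 (0.36), C3 (0.36), Acta2 (0.33), Tagln (0.28), Myc (0.25) and Vgll3 (0.24). After median-of-ratios scaling 3500 genes had a change upwards and 3061 downwards, against 1624 and 4757 as deposited. In H2ac13 the heterozygous DMSO libraries were at 25.9 and 4.03 FPKM, so its value rests on libraries that differ widely.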

How the results depend on the processing

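Scaling moved the balance of the calls most. Median-of-ratios scaling gave 4359 genes higher and upper-quartile scaling 4228, against 2683 as deposited. Under these scalings, in that order, Cdk7 went from -0.24 to 0.025 and 0.0043, Gapdh from -0.22 to 0.095 and 0.071, and Ppia from -0.27 to 0.042 and 0.018. Dusp6, Tagln2, Mcl1, Rpl35a and H2ac13 were not called under either of them, while Pkd2 was (0.40 and 0.38). Lamb3, Spry2 and Dusp10 also lost their lower calls under median-of-ratios scaling. The other settings kept the counts within 1.5 times, from 2294 higher and 4805 lower genes at a mean of at least 5 FPKM to 3101 and 6659 with no filter. Leaving out each library in turn gave 2468 to 2713 genes higher, 5761 to 6193 lower, 5587 to 6226 with a changed difference and 511 to 696 called in opposite order. Pkd2 was called without either heterozygous DMSO library (0.10).

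A fit with replicate number as a block gave 2679 genes higher and 6158 lower, 6381 with a changed difference and 680 in opposite order. Same-numbered libraries deviated with correlations of -0.12 to 0.12, so the numbers share no more than a name, and no named gene's call changed under the block.

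With 2 libraries per group the spread is pooled over 4 residual degrees of freedom. FPKM keep no total RNA per cell, so a loss of most RNAs in 1 line would appear as a shift in scale.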

Other observations

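The 100 most abundant genes took 25.5% to 26.2% of all FPKM in the null THZ1 libraries and 21.5% to 22.2% in the other 6 libraries. Null DMSO replicate 1 and null THZ1 replicate 2 listed 3378 and 3129 genes at 0.01 to 0.2 FPKM, against 2230 to 2586 in the other 6 libraries. The first principal component of the 8 libraries held 75.54% of the variance.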
